A study of Homo sapiens with 20 samples.

Results

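The transcript levels of 8 regulators of luminal and epithelial identity were followed across 5 established human cancer cell lines: ESR1, GATA3, FOXA1, TFAP2A, SPDEF, ELF3, GRHL2 and ESRP1. They were taken by symbol from the count tables, in which all 8 were listed among 50775 features. RNA was sequenced from SKBR3 and AU565, both breast cancer lines, from the melanoma lines A375 and SKMEL28, and from the well differentiated liposarcoma line 94T778. Each line was left untreated or exposed for 72 h to torkinib (PP242), an inhibitor of the MTOR kinase, which controls growth and protein synthesis. The dose was 0.8 µM in SKBR3, 4 µM in AU565, A375 and SKMEL28, and 10 µM in 94T778, and per the labels doses were set so that cells stopped dividing but stayed viable. Each of the 10 groups held 2 libraries, and no time is given for the untreated ones. SKBR3 and AU565 carry an amplified ERBB2 (HER2) gene and are catalogued as lines from the same patient, so they do not represent separate tumours. Each line is 1 established line, and the labels do not say whether libraries of a group came from separate cultures. The series was designed around MTOR inhibition and DNA repair genes. The comparisons here are untreated SKBR3 and AU565 against the other lines, and torkinib against untreated in both breast lines.

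In the mammary gland, luminal cells line the ducts and depend on a small set of transcription factors. FOXA1 is a pioneer factor that opens chromatin for other factors, GATA3 maintains luminal differentiation, TFAP2A encodes the AP-2 alpha factor, and ESR1 encodes estrogen receptor alpha, through which luminal cells respond to estrogen. SPDEF and ELF3 belong to the epithelium-specific branch of the ETS family, SPDEF being known for secretory programs and ELF3 for epithelial differentiation. GRHL2, a grainyhead factor, activates genes of cell junctions. ESRP1 is no transcription factor: it binds RNA and directs the epithelial pattern of alternative splicing. TFAP2A and GATA3 also work outside the mammary gland, TFAP2A in melanocytes among others.

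Libraries held 4040023 to 9737903 counted reads. Levels are given as normalised CPM, that is reads counted to a gene relative to the scaled size of the library, as mean ± SD of 2 libraries. Summed CPM of 6 luminal or epithelial markers was 10018 to 22740 in the 8 breast libraries and 62.1 to 455 in the 12 others. Of these markers CDH1, the gene of E-cadherin, had 0 counts in the 4 untreated breast libraries and at most 2 in any breast library, so the breast lines carried the luminal keratins, EPCAM and ERBB2 but not this defining junction gene. The 2 untreated SKBR3 libraries stood apart from each other: mitochondrially encoded genes took 7.63% of counts in replicate 1 and 4.44% in replicate 2, the nuclear RNAs MALAT1 and NEAT1 summed to 3841 and 2082 CPM, and 6 melanocyte markers summed to 11.03 and 38.95 CPM. The melanocyte sum was 7197 to 7576 CPM in untreated SKMEL28. The SKBR3 responses of the 8 genes, and of the other genes and lists given below, were therefore also computed without either library. Fewer cells of a type and less RNA per cell cannot be told apart in such bulk samples.

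Upstream sequences are shown for SPDEF, ELF3 and FOXA1, which were higher in both breast lines than in each other line and whose torkinib responses were unlike. They are the 250 bases before each RefSeq start in the build GRCh38.p14, written 5′ to 3′ on the gene's strand, in lower case with any match to a searched motif in capitals. They lie at chr6:34556330-34556579 on the minus strand for SPDEF, chr1:202010337-202010586 on the plus strand for ELF3 and chr14:37595250-37595499 on the minus strand for FOXA1. RefSeq starts were given for 6 of the 8 genes, with GRHL2 and ESRP1 not among them. GRHL2, which was also higher in both breast lines than in each other line, could therefore not be shown.
SPDEF: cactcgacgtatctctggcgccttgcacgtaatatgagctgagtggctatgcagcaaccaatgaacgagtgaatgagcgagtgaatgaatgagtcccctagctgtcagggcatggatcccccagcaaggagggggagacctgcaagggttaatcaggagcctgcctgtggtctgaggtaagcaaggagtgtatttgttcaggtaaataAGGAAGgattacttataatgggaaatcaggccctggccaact
ELF3: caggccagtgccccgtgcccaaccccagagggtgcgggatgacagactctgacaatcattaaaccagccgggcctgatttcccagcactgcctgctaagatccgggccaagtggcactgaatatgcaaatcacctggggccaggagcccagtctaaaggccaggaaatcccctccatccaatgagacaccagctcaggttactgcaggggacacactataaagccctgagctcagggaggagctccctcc
FOXA1: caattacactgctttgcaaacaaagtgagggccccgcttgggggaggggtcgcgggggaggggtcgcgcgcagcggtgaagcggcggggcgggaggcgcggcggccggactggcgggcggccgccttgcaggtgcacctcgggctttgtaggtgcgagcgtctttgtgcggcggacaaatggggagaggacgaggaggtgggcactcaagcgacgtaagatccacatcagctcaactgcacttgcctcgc
Searched on both strands were the ETS core AGGAAG, the AP-2 palindrome GCCNNNGGC, the GATA site AGATAA, the forkhead site TGTTTAC, the grainyhead site AACCGGTT and the estrogen response element. The SPDEF stretch held 1 ETS core, at -42 to -37 from the start. The ELF3 and FOXA1 stretches held none of the 6 motifs. Among the other genes, 3 of the 6 starts of GATA3 had an AP-2 palindrome and 1 of these also an ETS core, 1 of the 2 starts of TFAP2A had 3 ETS cores, and 1 of the 6 starts of ESR1 had 2. No match overlapped another. Of 35116 RefSeq promoters of the same length, 28.7% held the ETS core, 19.8% the AP-2 palindrome, 9.17% the GATA site, 2.98% the forkhead site, 0.117% the grainyhead site and 0.0399% the estrogen response element. A match is a run of letters and not a bound site, and its absence concerns these 250 bases alone.

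Before treatment, SPDEF, ELF3 and GRHL2 were abundant in both breast lines and nearly undetected in the other lines, while FOXA1 was high in the breast lines with a lower level in 94T778. GATA3, TFAP2A and ESRP1 did not follow tissue: each was higher in 1 liposarcoma or melanoma line than in at least 1 breast line. ESR1 was close to the detection limit everywhere. Over line sums, in which the line is the replicate (2 breast against 3 other lines), 3 of the 8 genes were higher in the breast lines by edgeR's quasi-likelihood test at an adjusted p under 0.05, where 5.79% of 15446 genes tested were. Since both breast lines come from 1 patient, the spread within breast in these p-values is that of lines from 1 donor, and they do not extend to other breast tumours. In the 6 pairs of a breast line with another line, tested on libraries, 4 of the 8 were higher in all 6, where 17.0% of 16698 genes were. SPDEF, ELF3 and GRHL2 passed the filter on low counts only through their breast libraries, so that they differed follows in part from being tested at all.

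**Figure D1:**
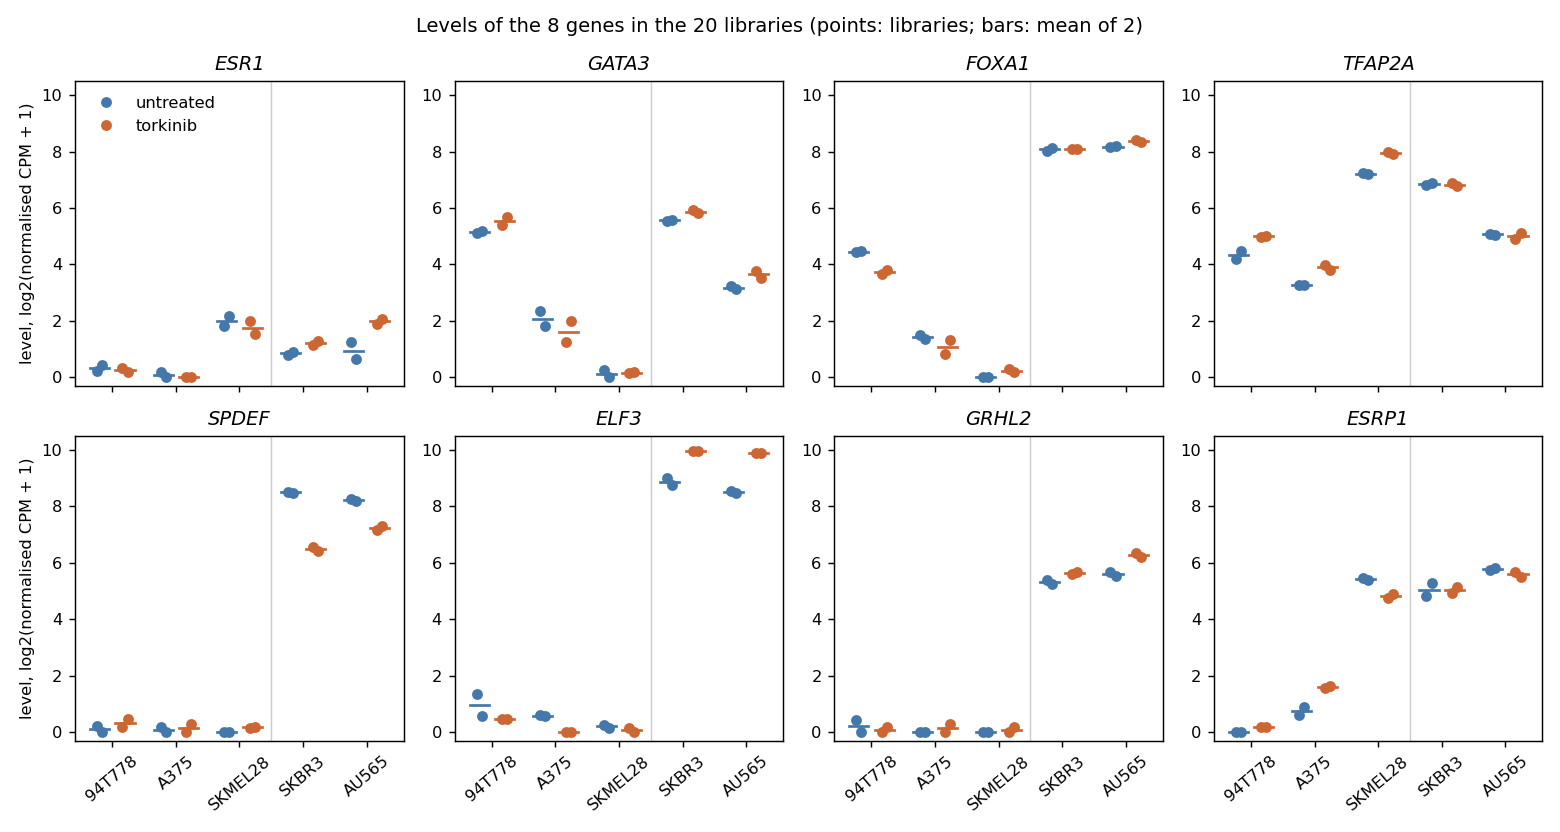
Level of each of the 8 genes in every library, as log2(normalised CPM + 1) on the vertical axis, by cell line on the horizontal axis. Points are libraries, untreated in blue and torkinib in orange, bars are means of 2, and the grey line sets the breast lines SKBR3 and AU565 apart. SPDEF, ELF3 and GRHL2 lie near 0 in the 3 other lines, SPDEF drops and ELF3 climbs with torkinib in both breast lines, and GATA3, TFAP2A and ESRP1 reach breast levels in 94T778 or SKMEL28.

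SPDEF, the secretory ETS factor, was at 364 and 358 CPM in the untreated SKBR3 libraries and at 304 and 289 CPM in those of AU565. The other 6 untreated libraries held 1, 0, 1, 0, 0 and 0 reads of it, for 94T778, A375 and SKMEL28 in turn. The breast and other libraries thus did not overlap, and 94T778 and A375 with 1 read each cannot be ordered against SKMEL28 with none. The ratio of SKBR3 to 94T778 was 4001 (95% exact binomial interval 718 to 158080, counting error only), and SKBR3 was at least 1543-fold and AU565 at least 1339-fold higher than SKMEL28, against a floor of 3 reads over the group. The fitted log2 difference over line sums was 12.52 (SE 0.77, edgeR adjusted p = 0.0099), a value that depends on the prior count. Between the breast lines SPDEF was lower in AU565 by a log2 difference of -0.28 (SE 0.08, edgeR adjusted p = 0.0026).

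ELF3, the other epithelial ETS factor, was at 508 and 436 CPM in untreated SKBR3 and at 370 and 354 CPM in untreated AU565. It was at 1.54 and 0.505 CPM in 94T778, 0.528 and 0.478 CPM in A375 and 0.196 and 0.119 CPM in SKMEL28. The breast libraries stood clear of all others, with 94T778 and A375 overlapping and SKMEL28 lowest, at 2 reads in all. The ratio of totals was 433 for SKBR3 against 94T778 and 627 for AU565 against A375. Over line sums the log2 difference was 9.57 (SE 0.87, edgeR adjusted p = 0.0115). AU565 was below SKBR3 by a log2 difference of -0.38 (SE 0.08, edgeR adjusted p = 9.6e-05).

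GRHL2, the activator of junction genes, was at 41.4 and 37.5 CPM in untreated SKBR3 and at 49.9 and 45.7 CPM in untreated AU565. In the other lines 94T778 replicate 1 had 2 reads and the other 5 untreated libraries none. The breast lines were at least 172-fold (SKBR3) and at least 221-fold (AU565) higher than A375 and at least 168-fold and 216-fold higher than SKMEL28, against the same floor. Over line sums the log2 difference was 9.55 (SE 1.21, edgeR adjusted p = 0.0160). AU565 was higher than SKBR3 by a log2 difference of 0.28 (SE 0.12, edgeR adjusted p = 0.0417), a call lost in 6 of 11 alternatives, among them DESeq2 (adjusted p = 0.14) and leaving out untreated SKBR3 replicate 2 (log2 difference 0.22).

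FOXA1, the pioneer factor, was at 259 and 280 CPM in untreated SKBR3 and at 282 and 293 CPM in untreated AU565. It was at 20.5 and 21.0 CPM in 94T778, at 1.85 and 1.55 CPM in A375, and had 0 reads in both SKMEL28 libraries. The order AU565, SKBR3, 94T778, A375, SKMEL28 had no overlap between libraries of neighbours, although the difference between AU565 and SKBR3 did not pass the test (log2 difference 0.09, 95% interval -0.05 to 0.23, edgeR adjusted p = 0.32). The log2 difference from 94T778 was 3.70 (SE 0.10) for SKBR3 and 3.79 (SE 0.10) for AU565, and FOXA1 was at least 1158-fold higher in SKBR3 than in SKMEL28. Over line sums the log2 difference of 5.24 (SE 1.94) missed the threshold (edgeR adjusted p = 0.14), and the other lines ranged from 0 to 20.8 CPM. It passed with DESeq2 (adjusted p = 0.0244), with limma-voom (0.0438), with libraries in place of line sums as the replicates (edgeR adjusted p = 0.0062) and without 94T778, where the log2 difference was 8.35 (edgeR adjusted p = 0.0314).

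GATA3, the luminal differentiation factor, was at 45.0 and 47.1 CPM in untreated SKBR3, at 33.8 and 35.3 CPM in 94T778 and at 8.30 and 7.68 CPM in AU565. It was at 4.09 and 2.51 CPM in A375 and had 1 read in SKMEL28. The liposarcoma line therefore held more GATA3 RNA than 1 of the breast lines. SKBR3 exceeded 94T778 by a log2 difference of 0.42 (SE 0.13, edgeR adjusted p = 0.0037), and AU565 was below 94T778 by -2.11 (SE 0.16, edgeR adjusted p = 2.6e-14). Between the breast lines AU565 was lower by -2.52 (SE 0.15, edgeR adjusted p = 4.1e-16), the largest baseline difference among the 8 genes. The comparison over line sums gave 1.12 (SE 1.85, edgeR adjusted p = 0.71).

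TFAP2A, the AP-2 alpha factor, was highest in the melanoma line SKMEL28, at 149 and 148 CPM. It followed at 112 and 116 CPM in SKBR3, at 32.7 and 32.2 CPM in AU565, at 17.3 and 21.4 CPM in 94T778 and at 8.71 and 8.71 CPM in A375. No neighbours in this order overlapped, and the 2 melanoma lines stood at its ends. SKBR3 was below SKMEL28 by a log2 difference of -0.38 (SE 0.08, edgeR adjusted p = 8.9e-05) and AU565 by -2.19 (SE 0.09). AU565 was below SKBR3 by -1.81 (SE 0.09, edgeR adjusted p = 3.1e-18). In GENCODE 29, 14.3% of the exon bases of TFAP2A overlap antisense genes, and 18.0% of those of ELF3 overlap ELF3-AS1 or AL691482.3. The strand setting is not given, so reads of such partners cannot be told apart.

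ESRP1, the splicing regulator, was at 52.2 and 55.3 CPM in AU565, 43.6 and 41.5 CPM in SKMEL28, and 27.6 and 37.7 CPM in SKBR3. It was at 0.528 and 0.836 CPM in A375 and had no reads in 94T778, against which SKBR3 was at least 123-fold and AU565 at least 208-fold higher. SKMEL28 thus lay between the breast lines: AU565 was above it by a log2 difference of 0.34 (SE 0.11, edgeR adjusted p = 0.0062) and SKBR3 below it by -0.36 (SE 0.12, edgeR adjusted p = 0.0087). The SKBR3 libraries were unlike for this gene, and without untreated SKBR3 replicate 1 that difference was -0.15 (edgeR adjusted p = 0.31). Without SKMEL28 the log2 difference over line sums was 6.85 (edgeR adjusted p = 0.0349) in place of 1.62 (adjusted p = 0.64). AU565 exceeded SKBR3 by 0.70 (SE 0.12, edgeR adjusted p = 3.8e-06).

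ESR1, the estrogen receptor gene, had 4 and 6 reads in untreated SKBR3, 13 and 4 in AU565, 13 and 29 in SKMEL28, 1 and 2 in 94T778 and 1 and 0 in A375. These correspond to 0.736 and 0.880 CPM in SKBR3, 1.38 and 0.549 CPM in AU565, and 2.54 and 3.46 CPM in SKMEL28. The melanoma line was the highest and the breast lines overlapped each other. SKBR3 and AU565 were below SKMEL28 by log2 differences of -1.90 (SE 0.48, edgeR adjusted p = 0.00061) and -1.59 (SE 0.42, edgeR adjusted p = 0.00098). Its paralog ESR2 had 4 reads in SKBR3 and 6 in AU565, and PGR, the progesterone receptor gene and a textbook estrogen receptor target, had 1 and 0. Of the 8 regulators, ESR1 was the one that did not reach 5 CPM in any library.

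**Figure D2:**
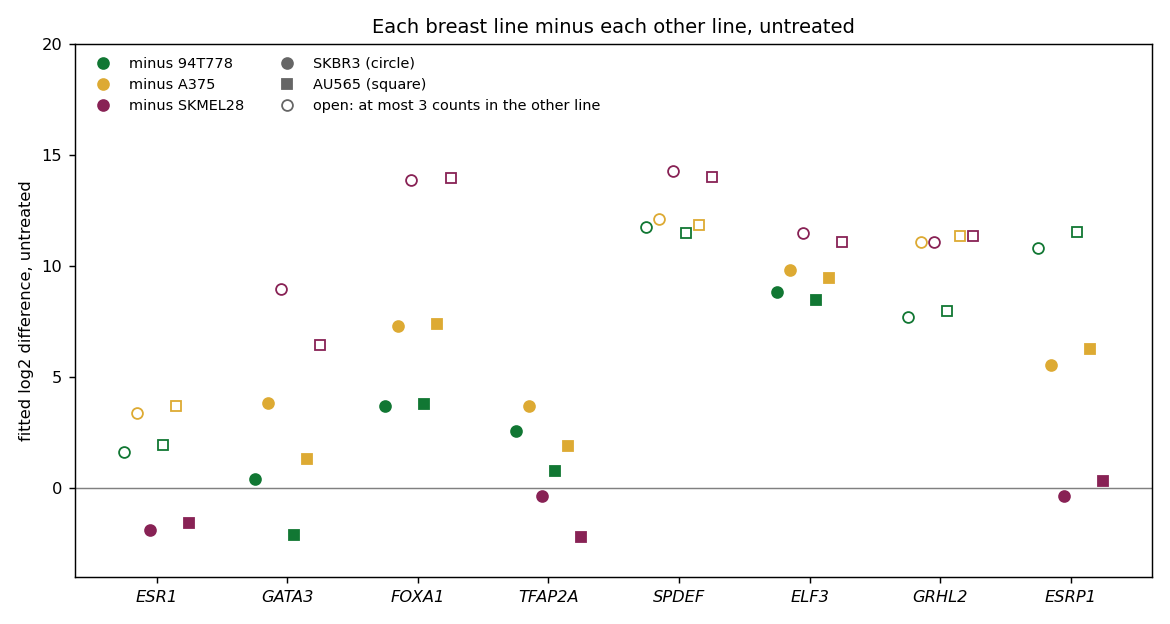
Fitted log2 difference of each untreated breast line from each other untreated line (vertical axis) for the 8 genes (horizontal axis), circles for SKBR3 and squares for AU565, coloured by the other line. Open symbols mark pairs with at most 3 reads in the other line, whose fitted size depends on the prior count. FOXA1, SPDEF, ELF3 and GRHL2 lie above 0 in all 6 pairs, GATA3 falls below 0 for AU565 minus 94T778, ESRP1 for SKBR3 minus SKMEL28, and TFAP2A and ESR1 for both breast lines minus SKMEL28.

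The breast lines differed from each other before treatment in 6 of the 8 genes, where edgeR called 51.2% of all genes tested. GATA3, TFAP2A, SPDEF and ELF3 were lower and ESRP1 and GRHL2 higher in AU565. All but the GRHL2 call held in the 11 alternatives run for this comparison.

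Compared between genes per kb of GENCODE 29 exon length, which is another annotation than that of the counts, the levels in untreated SKBR3 ran from SPDEF (189 CPM per kb) over FOXA1 (94.2), ELF3 (76.5), TFAP2A (24.6), GATA3 (14.8), ESRP1 (8.44) and GRHL2 (7.45) to ESR1 (0.0628). In untreated AU565 SPDEF (155 CPM per kb), FOXA1 (100.4) and ELF3 (58.7) led in the same order. There ESRP1 (13.9) and GRHL2 (9.02) stood above TFAP2A (6.99) and GATA3 (2.56). With torkinib ELF3 was the first of the 8 in both lines, at 161 CPM per kb in SKBR3 and 153 in AU565, and SPDEF was at 46.2 and 78.5.

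The relatives of the 8 genes differed in how they were used. Of 23 paralogs 17 were tested, and 9 of these were higher in the breast lines in all 6 pairs, beside 17.0% of all genes tested. ESRP2, which directs the same splicing program as ESRP1, was at 247 and 215 CPM in untreated SKBR3 and 153 and 150 CPM in AU565, and GRHL1 was at 116 and 130 CPM and at 203 and 195 CPM. Over line sums ESRP2 was higher by a log2 difference of 8.42 (SE 0.47) and GRHL1 by 6.18 (SE 0.48), both with an edgeR adjusted p of 0.0099. TFAP2C, the AP-2 gamma gene, was at 410 and 404 CPM in SKBR3 and 325 and 342 CPM in AU565, with a log2 difference over line sums of 2.29 (SE 0.46, edgeR adjusted p = 0.0398). GATA2 was at 107 and 105 CPM in SKBR3 and 38.0 and 35.8 CPM in AU565, which put both GATA genes lower in AU565 (GATA2 log2 difference -1.52, SE 0.09, edgeR adjusted p = 3.3e-16). EHF, another epithelial ETS gene, went the other way, with a log2 difference of 2.45 (SE 0.14, edgeR adjusted p = 5.7e-17) higher in AU565. The FOXA1 relatives FOXA2 and FOXA3 had at most 3 reads in either untreated breast line.

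In a list of other luminal and epithelial transcription factors, 16 of 21 tested were higher in the breast lines in all 6 pairs, beside the same 17.0% of all genes. This list shares 6 genes with the paralogs, of which EHF, ELF5, GRHL1, GRHL3 and TFAP2C were among the 16 and TFAP2B was not, and 11 of the 15 that are no paralogs were higher. Of 25 junction and surface genes 24 were tested, and 23 of these were also higher in all 6 pairs. Among them were EPCAM (log2 difference over line sums 9.81, SE 0.55), ST14 (10.65, SE 0.68) and RAB25 (9.78, SE 0.71), each with an edgeR adjusted p of 0.0099. CDH1, the E-cadherin gene with almost no reads in the breast libraries, was not among the genes tested. Of 8 luminal keratins and genes of the ERBB2 group 7 were higher in all 6 pairs, and of 13 tested estrogen receptor targets 7 were. None of 13 mesenchymal genes was, and over line sums 5 of 12 tested were lower, where 4.41% of all genes tested were, with VIM at -9.09 (SE 1.12, edgeR adjusted p = 0.0152). The endothelial marker CDH5 was also higher, at 16.4 and 21.7 CPM in untreated SKBR3 and 26.7 and 26.9 CPM in AU565. Genes of these lists or the paralogs with almost no reads in the other lines, such as ELF5, passed the filter only through breast libraries. That they were higher follows in part from being tested at all, as for SPDEF, ELF3 and GRHL2. The lists were also chosen with earlier results of these data known, so their counts are not independent of these data.

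With torkinib, SPDEF fell and ELF3 rose in both breast lines, the clearest responses of the 8 genes. GRHL2 and GATA3 rose modestly in both, FOXA1 and ESR1 rose in AU565, and TFAP2A and ESRP1 passed the test in neither. The calls of GATA3 in both lines, GRHL2 in SKBR3, and FOXA1 and ESR1 in AU565 were each lost in some alternatives. In SKBR3, edgeR called 4 of the 8 genes (3 higher and 1 lower), where it called 51.3% of 16698 genes tested, 24.6% higher and 26.7% lower. In AU565 it called 6 of the 8 (5 higher and 1 lower), where it called 55.6% of genes, 26.9% higher and 28.6% lower. Called the same way in both lines were 4 of the 8, against 35.9% of all genes. The share called in SKBR3 lay near that of all genes tested. The median log2 change of the 8 was 0.16 in SKBR3 and 0.35 in AU565, beside 0.00 over all genes tested in each line. All genes tested include genes without reads in the line, whose fitted change there was 0. The shares and medians over all genes tested are therefore not those of expressed genes alone.

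SPDEF went from 364 and 358 CPM to 92.6 and 84.1 CPM in SKBR3 and from 304 and 289 CPM to 142 and 159 CPM in AU565. Treated and untreated libraries did not overlap in either line, and SPDEF, higher in SKBR3 before treatment, was lower there after it. The log2 change was -2.03 (SE 0.09, edgeR adjusted p = 1.9e-20) in SKBR3 and -0.98 (SE 0.08, edgeR adjusted p = 1.4e-12) in AU565. Without untreated SKBR3 replicate 1 or replicate 2 the change in SKBR3 was -2.04 and -2.05. The difference between the responses was 1.06 (SE 0.12, edgeR adjusted p = 3.1e-08). The doses, 0.8 µM in SKBR3 and 4 µM in AU565, differed as well, so that line and dose cannot be told apart.

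ELF3 went from 508 and 436 CPM to 996 and 991 CPM in SKBR3 and from 370 and 354 CPM to 941 and 948 CPM in AU565. All 4 treated libraries were above all 4 untreated ones, and the treated levels lay closer together than the untreated levels. The log2 change was 1.07 (SE 0.08, edgeR adjusted p = 4.1e-14) in SKBR3 and 1.38 (SE 0.08, edgeR adjusted p = 4.1e-17) in AU565. In SKBR3 it was 1.18 without untreated replicate 1 and 0.96 without replicate 2. The responses differed by 0.31 (SE 0.11, edgeR adjusted p = 0.0375), a call lost in 10 of 15 alternatives. Among these were DESeq2 (adjusted p = 0.0773) and leaving out untreated SKBR3 replicate 1, where the difference was 0.19, against 0.41 without replicate 2. SPDEF and ELF3 were the 2 of the 8 genes whose response differed between the lines, where 23.8% of all genes tested were called.

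GRHL2 went from 41.4 and 37.5 CPM to 47.5 and 49.6 CPM in SKBR3 and from 49.9 and 45.7 CPM to 80.1 and 73.2 CPM in AU565. In each line both treated libraries were above both untreated ones. The log2 change was 0.31 (SE 0.12, edgeR adjusted p = 0.0362) in SKBR3 and 0.67 (SE 0.11, edgeR adjusted p = 2.0e-06) in AU565. The SKBR3 call was lost in 7 of 11 alternatives, among them DESeq2 (adjusted p = 0.0777) and leaving out untreated replicate 2 (log2 change 0.23). The AU565 call held in all 11. The difference between lines was 0.37 (SE 0.16, edgeR adjusted p = 0.10).

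GATA3 went from 45.0 and 47.1 CPM to 59.8 and 54.9 CPM in SKBR3 and from 8.30 and 7.68 CPM to 12.7 and 10.4 CPM in AU565. Treated libraries were again above untreated ones in each line. The log2 change was 0.31 (SE 0.12, edgeR adjusted p = 0.0286) in SKBR3 and 0.51 (SE 0.20, edgeR adjusted p = 0.0292) in AU565, and each call was lost in 5 of 11 alternatives. In SKBR3 these include DESeq2 (adjusted p = 0.0749) and leaving out untreated replicate 1 (log2 change 0.27, edgeR adjusted p = 0.0932). In 94T778, whose GATA3 level was near that of SKBR3, the change was from 33.8 and 35.3 CPM to 41.3 and 49.9 CPM (log2 0.40, SE 0.12, edgeR adjusted p = 0.0074).

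FOXA1 was at 259 and 280 CPM untreated and 269 and 274 CPM with torkinib in SKBR3, where the treated libraries lay within the untreated range (log2 change 0.01, 95% interval -0.13 to 0.16, edgeR adjusted p = 0.97). In AU565 it went from 282 and 293 CPM to 339 and 321 CPM, with no overlap (log2 change 0.20, SE 0.07, edgeR adjusted p = 0.0196). That call was lost without untreated replicate 1 (adjusted p = 0.16), without untreated replicate 2 (0.0535), without treated replicate 1 (0.17) and with no filter on low counts (0.26). The difference between lines was 0.19 (SE 0.10, edgeR adjusted p = 0.21). In 94T778 FOXA1 fell from 20.5 and 21.0 CPM to 11.5 and 13.0 CPM (log2 -0.76, SE 0.14, edgeR adjusted p = 2.4e-05).

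TFAP2A was at 112 and 116 CPM untreated and 117 and 108 CPM with torkinib in SKBR3, and at 32.7 and 32.2 CPM and 28.7 and 33.5 CPM in AU565. Groups overlapped in both lines, and the log2 changes were -0.02 (95% interval -0.19 to 0.14) and -0.05 (95% interval -0.27 to 0.17). In each of the other lines TFAP2A rose. It went from 149 and 148 CPM to 254 and 238 CPM in SKMEL28 (log2 0.73, SE 0.08, edgeR adjusted p = 4.2e-10), from 17.3 and 21.4 CPM to 30.3 and 31.2 CPM in 94T778 (log2 0.67, SE 0.12) and from 8.71 and 8.71 CPM to 14.9 and 13.1 CPM in A375 (log2 0.70, SE 0.17). Whether this differs between breast and other lines was not tested, and doses differ.

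ESRP1 was at 27.6 and 37.7 CPM untreated and 29.8 and 34.3 CPM with torkinib in SKBR3, and at 52.2 and 55.3 CPM and 50.6 and 44.4 CPM in AU565. In SKBR3 the groups overlapped (log2 change -0.03, 95% interval -0.29 to 0.22). In AU565 the treated libraries were both below the untreated ones, and the change of -0.18 (95% interval -0.40 to 0.03) did not pass the test (edgeR adjusted p = 0.17). In SKMEL28 ESRP1 fell from 43.6 and 41.5 CPM to 26.1 and 28.4 CPM (log2 -0.64, SE 0.12, edgeR adjusted p = 4.0e-05). In A375 it rose from 0.528 and 0.836 CPM to 1.98 and 2.11 CPM (log2 1.54, SE 0.51, edgeR adjusted p = 0.0146).

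ESR1 went from 13 and 4 reads (1.38 and 0.549 CPM) to 14 and 22 reads (2.66 and 3.22 CPM) in AU565, and from 4 and 6 reads (0.736 and 0.880 CPM) to 6 and 9 reads (1.19 and 1.44 CPM) in SKBR3. The log2 change in AU565 was 1.53 (SE 0.44, edgeR adjusted p = 0.0030). It was 1.09 without untreated replicate 2 (adjusted p = 0.0599), 2.39 without untreated replicate 1 and 1.37 without treated replicate 2 (adjusted p = 0.0551). In SKBR3 the change of 0.69 (SE 0.60) did not pass (edgeR adjusted p = 0.37). The treated AU565 level was near that of SKMEL28, at 2.95 and 1.90 CPM with torkinib.

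**Figure D3:**
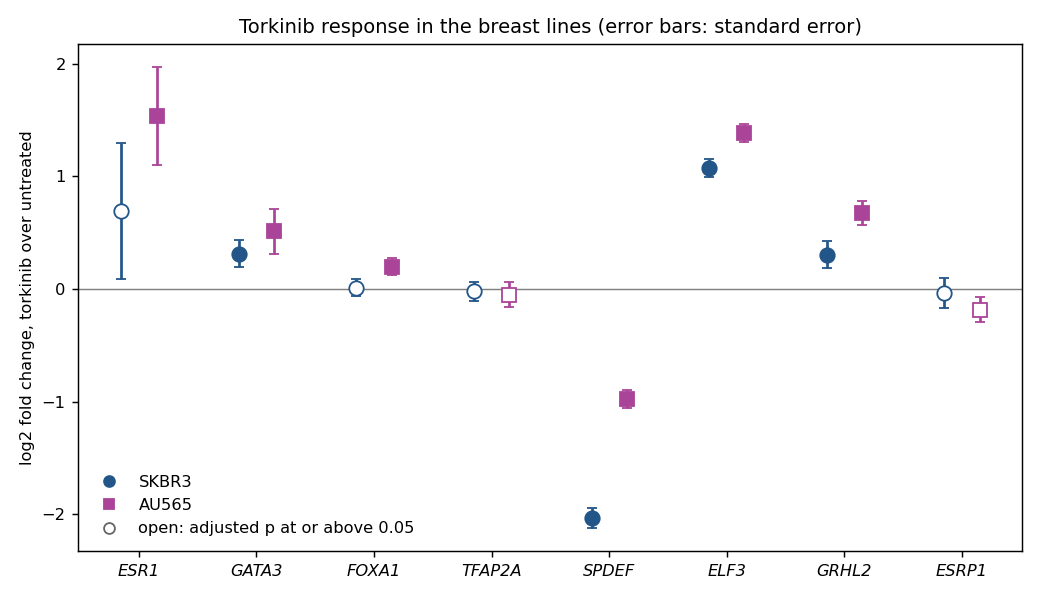
Log2 fold change with torkinib over untreated (vertical axis) for the 8 genes (horizontal axis), in SKBR3 (blue circles) and AU565 (purple squares). Error bars are standard errors of the edgeR fit, and open symbols mark an adjusted p at or above 0.05. SPDEF lies at -2.03 and -0.98, ELF3 at 1.07 and 1.38, and TFAP2A and ESRP1 lie near 0 in both lines.

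In the other lines SPDEF, ELF3 and GRHL2 were at 3 reads or fewer per library with torkinib. ELF3 in 94T778 went from 9 and 3 reads to 3 and 3, which did not pass the test (log2 -1.38, SE 0.65, edgeR adjusted p = 0.079). ELF3 in A375 went from 8 reads to 0, which edgeR called lower (adjusted p = 0.0125). No fold is given for SPDEF and GRHL2 there, since both groups were at or near the floor of 3 reads.

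The other regulators and the genes they are known for did not move in 1 direction with torkinib. Of 21 other luminal and epithelial transcription factors tested, 6 rose and 11 fell in SKBR3 (median log2 change -0.24). In AU565, 8 rose and 10 fell (median -0.18). Over all genes tested, 24.6% were called higher and 26.7% lower in SKBR3, and 26.9% and 28.6% in AU565. The median over all genes tested was 0.00 in each line, genes without reads in the line included. XBP1, the regulator of the secretory stress response, went from 1230 and 1355 CPM to 322 and 316 CPM in SKBR3 and from 1216 and 1241 CPM to 381 and 370 CPM in AU565. Its libraries did not overlap between treatments, and its log2 changes were -2.02 (SE 0.07, edgeR adjusted p = 3.2e-23) and -1.71 (SE 0.07, edgeR adjusted p = 2.9e-21). The 6 genes shared with the paralogs are counted here too. IRX3 fell by 1.28 on the log2 scale in SKBR3 (edgeR adjusted p = 9.8e-12).

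Among the 17 paralogs tested, 6 rose and 5 fell in SKBR3 (median log2 change -0.13) and 5 rose and 4 fell in AU565 (median -0.07). Beside them stand 24.6% of all genes tested called higher and 26.7% lower in SKBR3, and 26.9% and 28.6% in AU565. ETS relatives of SPDEF and ELF3 went both ways. ELF5, known for alveolar differentiation, fell from 11.95 and 15.40 CPM to 1.39 and 0.638 CPM in SKBR3 (log2 -3.80, SE 0.35, edgeR adjusted p = 1.1e-10) and by 1.58 on the log2 scale (SE 0.28) in AU565. ELF4 fell by 0.59 and 1.23 on the log2 scale. EHF rose by log2 changes of 0.78 (SE 0.17) and 0.37 (SE 0.11), and ELF1 by 1.17 (SE 0.12) and 0.54 (SE 0.10), in SKBR3 and AU565 in turn. The grainyhead genes split in the same manner: GRHL1 rose by 0.73 (SE 0.09) and 0.40 (SE 0.08), as GRHL2 did, whereas GRHL3 fell by 1.04 and 1.57 on the log2 scale. Of the GATA genes, GATA6 rose in both lines, by 0.93 (SE 0.16) and 1.26 (SE 0.17), and GATA2 in SKBR3 by 0.36 (SE 0.08). TFAP2B fell by 1.74 and 1.44 on the log2 scale, from levels of at most 4.11 CPM in the breast lines. ESRP2 passed the test in neither line (log2 -0.13, SE 0.08, and -0.07, SE 0.09), as was the case for ESRP1, but without untreated SKBR3 replicate 2 ESRP2 was called lower in SKBR3 (log2 -0.23, edgeR adjusted p = 0.0173).

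Of 13 estrogen receptor targets tested, 3 rose and 8 fell in SKBR3 (median log2 change -0.52) and 3 rose and 9 fell in AU565 (median -0.70), in lines with almost no ESR1 RNA. AGR2, a secretory protein isomerase, fell by 1.49 in SKBR3 and 1.90 in AU565 on the log2 scale. NRIP1, a receptor corepressor, rose in SKBR3 by 1.91 (SE 0.12, edgeR adjusted p = 4.6e-16). Its AU565 response minus its SKBR3 response was -1.68 (SE 0.16, edgeR adjusted p = 4.3e-10). XBP1 stands in this list too. Of 24 junction and surface genes tested, 5 rose and 9 fell in SKBR3 (median -0.11). In AU565, 5 rose and 10 fell (median -0.19). For both lists, the share of all genes tested was 24.6% higher and 26.7% lower in SKBR3, and 26.9% and 28.6% in AU565. The mucin MUC1 went from 96.2 and 102 CPM to 15.9 and 17.2 CPM in SKBR3 (log2 -2.58, SE 0.11) and from 203 and 187 CPM to 82.9 and 97.7 CPM in AU565 (log2 -1.11, SE 0.08). Its responses differed by 1.47 (SE 0.15, edgeR adjusted p = 1.5e-09), in the same direction as those of SPDEF. CGN, the gene of the tight junction protein cingulin, rose in SKBR3 by 1.55 (SE 0.11). For CGN the AU565 response minus the SKBR3 response was -0.85 (SE 0.15, edgeR adjusted p = 6.5e-05).

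Of 8 luminal keratins and ERBB2 group genes, 1 rose and 5 fell in SKBR3 (median -0.34) and 1 rose and 4 fell in AU565 (median -0.16). All genes tested were called higher in 24.6% and lower in 26.7% in SKBR3, and in 26.9% and 28.6% in AU565. KRT19 fell by 1.41 and 1.11 and ERBB2 by 0.72 and 0.74 on the log2 scale, while GRB7, which neighbours ERBB2 in the amplified region, rose by 1.11 (SE 0.11) and 1.35 (SE 0.11). The summed CPM of the 6 luminal or epithelial markers went from 22740 and 21936 to 13217 and 13382 in SKBR3. In AU565 it went from 16934 and 16992 to 10018 and 10547. Of the 5 of these markers that were tested, 1 rose and 4 fell in each line, so the sum does not stand for every marker. Over the same libraries the 6 melanocyte markers went from 11.03 and 38.95 to 8.67 and 10.78 CPM in SKBR3 and from 10.68 and 9.04 to 27.0 and 27.5 CPM in AU565, and MALAT1 and NEAT1 summed to 1725 and 1275 CPM in untreated AU565 and to 3915 and 3868 CPM with torkinib. The share of mitochondrially encoded genes went from 7.63 and 4.44% of counts to 8.49 and 6.76% in SKBR3, where the groups overlapped, and from 4.66 and 4.11% to 6.32 and 6.20% in AU565, where they did not. CDH5, the endothelial cadherin gene, rose by 3.10 (SE 0.12) and 1.58 (SE 0.11). The part of these shifts in the responses of the 8 genes was not tested.

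**Figure D4:**
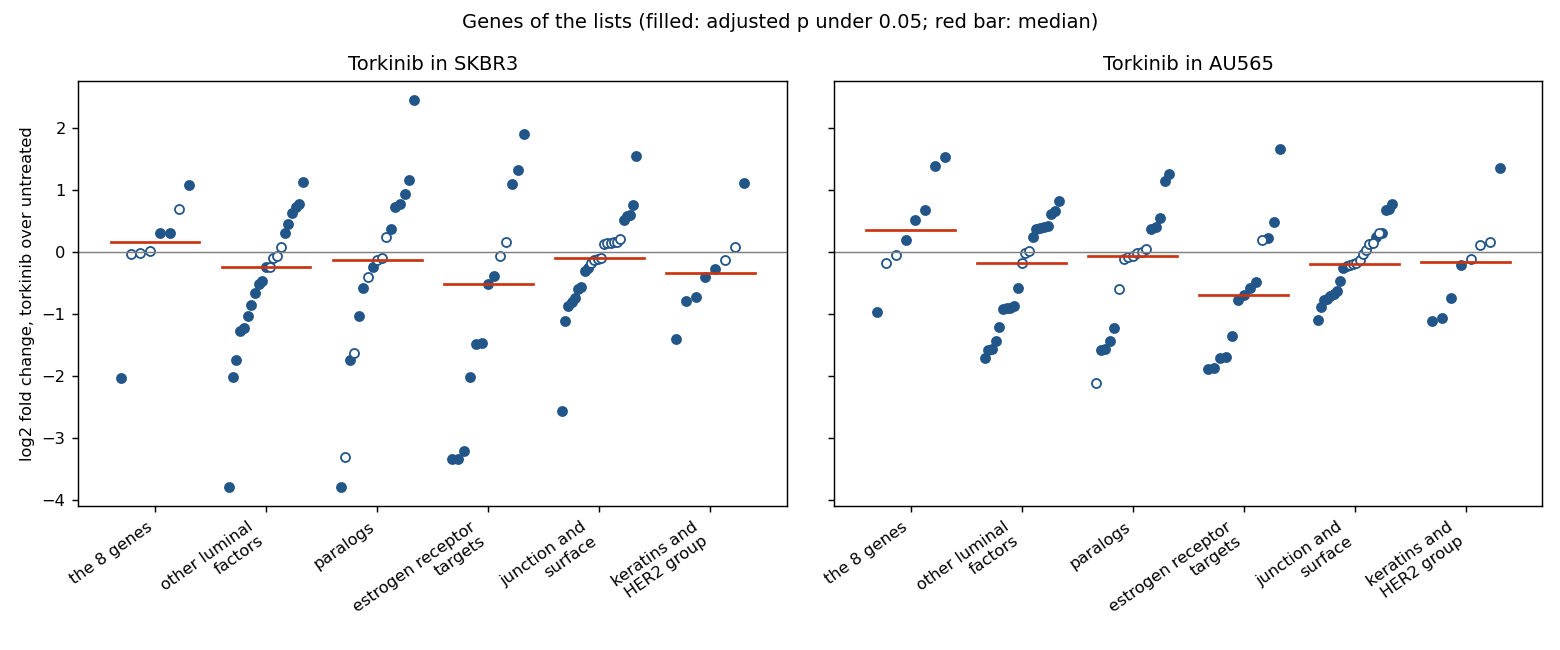
Log2 fold change with torkinib over untreated (vertical axis) of every tested gene of 6 gene lists (horizontal axis), in SKBR3 on the left and AU565 on the right. Filled points have an edgeR adjusted p under 0.05, and red bars are list medians. Each list holds genes that rose and genes that fell, and the estrogen receptor targets have the lowest medians, -0.52 and -0.70.

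Likeness of pattern was measured as Pearson's r of log2 CPM over the 10 group means, which share lines and so mostly reflect line identity. The gene most like FOXA1 was TTC6 (r = 0.989), its neighbour among protein-coding genes on chromosome 14 in the RefSeq table. Most like SPDEF were LRRC26 (0.999), C2orf54 (0.999) and SYT7 (0.998), and most like ELF3 were CES4A (0.997), POU2F3 (0.997) and OVOL2 (0.996), the last an epithelial transcription factor. GRHL2 was closest to IGSF5 (0.999), CAPN13 (0.999) and REXO1L1 (0.999), a multicopy gene whose counts are uncertain. GATA3 was closest to VAV2 (0.989), TFAP2A to CAPN10 (0.972) and ESRP1 to CCDC64 (0.975). Among the 8 genes themselves, ELF3 and GRHL2 (0.992), SPDEF and GRHL2 (0.987) and SPDEF and ELF3 (0.975) were the most alike over the 10 groups, although SPDEF and ELF3 moved in opposite directions with torkinib. ESR1 was closest to ESRP1 (0.821) and TFAP2A (0.770), the genes that were high in SKMEL28, and its correlation with GATA3 was -0.303.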

How the data were processed

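RNA from 20 libraries (10 groups of 2) was sequenced, and the authors deposited 1 table of raw read counts per gene symbol for each library. The tools named in the submitters' processing notes are HTSeq 0.6.1, HISAT2 2.04 and limma 3.34.9, with the build hg19 (GRCh37). What each did, which annotation was counted and whether strand was used is not given in the sources used here. Lines naming no gene were left out, and 47.8 to 62.4% of reads per library were counted to genes.

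Tests were run with edgeR 4.0.16 under R 4.3.3 (TMM factors, filterByExpr, glmQLFit and glmQLFTest, Benjamini-Hochberg over all genes tested, threshold 0.05). Responses and line pairs came from 1 model of 10 group means on 16698 genes (common biological coefficient of variation 0.0547, 10 residual degrees of freedom, 25.6 prior degrees of freedom). Breast and other lines were compared on untreated counts summed per line, 2 against 3 (15446 genes, coefficient 0.679, 3 residual degrees of freedom). Standard errors are the log2 change divided by the square root of the F statistic, and 95% intervals are normal ones from them. Bounds, ratios and marker sums use CPM of library totals. Bounds take a floor of 3 counts over the group. Such ratios, bounds and intervals cover counting error only, and p-values rest on the spread of 2 libraries a group, which can be technical. The fit was also run on simulated counts. For line sums these had a smaller spread between lines than the data, so they do not bear on the line-sum calls.

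All 8 genes were named. Of each list the 3 called genes with the smallest p in a contrast could be named, and paralogs by value. For genes at 5 CPM or more in a breast group the 3 most alike genes were found. PGR, CDH1, ESR2 and CDH5 are given as receptor or marker checks, and VIM, KRT19, EHF and the like by that rule. The 8 genes and the lists were chosen with earlier results of these data known. Alternatives were DESeq2 1.42.0, limma-voom (limma 3.58.1), library totals without factors, DESeq2's size factors, no filter, a replicate block, only the groups compared, separate untreated libraries, and leaving out each other line and each library. PECAM1, a marker, matched no symbol. Upstream sequences come from RefSeq on GRCh38.p14. No position on the build of the counts is given.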

Additional observations from a re-analysis of the deposited data

Results flagged for a closer look

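SPDEF responded differently to torkinib in the breast lines: its log2 change in AU565 minus that in SKBR3 was 1.06 (edgeR adjusted p = 3.1e-08), with a fall in all 4 treated libraries. ELF3 also differed, by 0.31 (edgeR adjusted p = 0.0375), with a rise in all 4 treated libraries, but this call was lost in 10 of 15 alternatives. These were 2 of the 8 genes, where 23.8% of all genes tested were called for the same difference. Both tests are of the difference between the responses, and the dose differed between the lines along with the line.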

How the results depend on the processing

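With 2 libraries a group and few reads of ESR1, small responses were at the limit of what this depth shows. The responses of SPDEF and ELF3 in both lines and of GRHL2 in AU565 kept direction and threshold in every alternative run. The SPDEF difference between lines did so too (0.96 to 1.13 over 15 alternatives). So did the breast against other calls of SPDEF, ELF3 and GRHL2. These genes passed the filter on low counts only through their breast libraries, so that the calls held follows in part from being tested at all. The number of the 8 genes called in SKBR3 was 2 with DESeq2 and 2 with no filter on low counts in place of 4, and 2 to 3 when 1 library was left out. In AU565 it was 3 to 5 with 1 library left out in place of 6, 3 of them without untreated replicate 2. The number whose response differed between lines was 1 with DESeq2, with no filter and with only the groups compared in place of 2, and 1 to 2 with 1 library left out. Over all genes, the number higher in breast line sums was 894, against 1996 with DESeq2 and 3288 with libraries kept separate. Why was not tested. In an alternative chosen after seeing the data, the SKBR3 counts of the 5 gene lists plotted beside the 8 genes and the 20 other genes given for SKBR3 were recomputed without either untreated SKBR3 library. Each of these counts stayed within 1.5 times its value, and no call or direction changed except for ESRP2.

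Near 0, direction turned for TFAP2A in SKBR3 (log2 change 0.0076 with DESeq2, 0.0070 with its size factors, -0.081 to 0.021 leaving out 1 library), FOXA1 in SKBR3 (-0.0055 with no filter, -0.056 to 0.067 leaving out 1 library) and ESRP1 in SKBR3 (-0.24 to 0.22). The same held on leaving out 1 library for TFAP2A in AU565 (-0.19 to 0.044), for the response differences of ESRP1 (-0.41 to 0.041) and TFAP2A (-0.16 to 0.069), and for ESR1 between the untreated breast lines (-0.55 to 0.75) and over line sums (-0.73 to 0.16). Over line sums ESR1 was 1.19 with limma-voom and 2.52 without SKMEL28, and TFAP2A was -0.089 without 94T778 and -0.20 without A375. The smallest of the 6 pair differences became positive for GATA3 without 94T778 (1.35) and, without SKMEL28, for ESR1 (1.64), TFAP2A (0.76) and ESRP1 (5.56); fewer pairs are then compared.

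Library totals without factors moved the median log2 difference of all genes to -0.41 (SKBR3) and -0.31 (AU565) against A375, from -0.13 and -0.10. Libraries with the same replicate number did not deviate together (correlation over genes -0.06 to 0.07 in the 5 lines), so the numbers were not taken to pair samples. With a replicate block 4 of the 8 genes were called in SKBR3, 6 in AU565, 2 for the difference and 4 in all 6 pairs, as without it, and 5 between the untreated breast lines in place of 6, GRHL2 being the exception (0.28, adjusted p = 0.0531).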
